A study of Mus musculus with 16 samples.

Results

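The 49 genes described here encode the ligands, carriers, receptors, SMAD proteins, inhibitors and response genes of TGF-beta, BMP and activin signalling. Membership rests on the gene's name and not on a threshold of its values, but the list was chosen with earlier results of these data known. Of the 49, 46 were among the 15805 genes of the deposited count table, and all 46 passed the filter on low counts that left 15675 genes for testing. Bmp2, Bmp5 and Nog were not analysed here.

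RNA was sequenced from 16 primary explants of epicardium, the cell layer that covers the heart, from C57BL6 mice. All were grown on collagen gel. In 8 explants blebbistatin, an inhibitor of the ATPase of myosin II, was added to block nonmuscle myosin II, and 8 explants without it were the controls. The labels give its dose as 20, but the unit differs between them (mM or mm). Neither the age of the mice nor whether controls received the solvent is given in the sources used here. Nothing in the labels says whether the explants of a group came from separate animals, so the p-values measure only the spread between these explants, which may be technical.

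Members of the TGF-beta family are secreted ligands that bring together type I and type II receptor kinases at the cell surface. TGF-beta itself is secreted in a latent form bound to matrix proteins and must be released before it can bind. TGF-beta and activin receptors phosphorylate SMAD2 and SMAD3, BMP receptors phosphorylate SMAD1, SMAD5 and SMAD9, and both sets enter the nucleus with SMAD4. In the epicardium these ligands are known for their effects on the transition of epithelial cells to migrating mesenchymal cells.

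Library totals ran from 20176386 to 89620195 counts in treated explants and from 27065611 to 60321622 in controls. Mitochondrial genes held 16.8% to 25.5% of the counts in treated libraries and 13.8% to 18.9% in controls. All 13 epicardial markers examined, such as Wt1 and Tbx18, were in the table, and their summed level was 3692 ± 1181 CPM (counts relative to the library total; SD, n = 8) with the drug and 4957 ± 1332 CPM without it (2-sided exact permutation test, p = 0.0643, adjusted p = 0.129 over 6 marker lists). Summed macrophage markers, 12 of 12 in the table, ranged from 253.4 to 3609 CPM with the drug and from 311.9 to 4553 CPM without it (adjusted p = 0.793, exact permutation test). Of these markers C1qa and Fcgr1 were at 0 in the lowest treated library. Fibroblast markers, 8 of 8 in the table, summed to 9156 ± 2790 and 9686 ± 1664 CPM, and 5 of 11 endothelial markers to 33.6 ± 12.9 and 42.6 ± 11.4 CPM (adjusted p = 0.788 and 0.237, exact permutation tests). Cardiomyocyte markers, 7 of 12 in the table, summed to 703.2 to 1280 CPM with the drug and 453.9 to 1060 CPM without it. Their adjusted p was 0.0266 (exact permutation test). Tnnt2 held most of this sum, at medians of 897.1 CPM with the drug and 449.8 without it (edgeR adjusted p = 0.1245). Log2 fold changes were positive for Tnnt2 (0.66), Ttn (1.64), Ryr2 (2.12) and Tnni1 (0.08) and negative for Myl7 (-0.26). Of these, edgeR called Ttn alone (adjusted p = 0.0464). Myh6 and Actc1 were at 0 in at least 1 library of each group, and Myh7, Myl2, Tnni3, Nppa and Pln were not analysed here. Smooth muscle and pericyte markers, 7 of 9 in the table and including Acta2 and Tagln, summed to 585.6 to 1193 CPM with the drug and 1233 to 2128 CPM without it (adjusted p = 0.000932, exact permutation test). Acta2 held most of this sum, at medians of 433.1 CPM with the drug and 1032 without it. In this list edgeR called Acta2 and Tagln alone. The others had log2 fold changes of -1.14 (Myh11), -1.64 (Cnn1), -0.84 (Des), -0.66 (Cspg4) and 0.07 (Pdgfrb), with edgeR adjusted p from 0.163 to 0.916. The part of these cell types in the values below was not tested, except where a fit with the summed log2 CPM of the macrophage markers is given. In whole explants, fewer cells of a type and less RNA per cell cannot be told apart.

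None of the 46 genes differed between treated and control explants at an adjusted p under 0.05 in edgeR's quasi-likelihood test, against 0.606% of the 15675 genes tested. By DESeq2, which called 3.23% of its 13047 genes with an adjusted p, 2 were higher with the drug (Tgfbr3 and Tgfbi; 1.47% called higher) and 1 was lower (Pmepa1; 1.76% called lower). By limma voom, Inhbb alone was lower, with 0.549% of all genes called lower and 0.236% called higher. At an unadjusted edgeR p under 0.05, 15 of the 46 (32.6%) stood apart, against 12.2% of all genes. Of these 15, 4 had a higher mean with the drug and 11 a lower one, whereas all genes were split about evenly, at 6.21% higher and 5.98% lower. Since the members were chosen with earlier results known, these shares are descriptions and not a test of the list. The median log2 fold change, treated minus control, was -0.14 over the 46 and 0.04 over all genes tested, and 28 of the 46 values were negative. Treated and control libraries overlapped in all 46, while 0.242% of all genes showed no overlap (0.159% lower and 0.0829% higher with the drug). In 7 (Inhbb, Fst, Fstl1, Smad2, Skil, Pmepa1 and Cdkn2b) every treated library lay below the control median, which held for 4.11% of all genes, and in Tgfbr3 every treated library lay above it, which held for 3.03%.

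**Figure D1:**
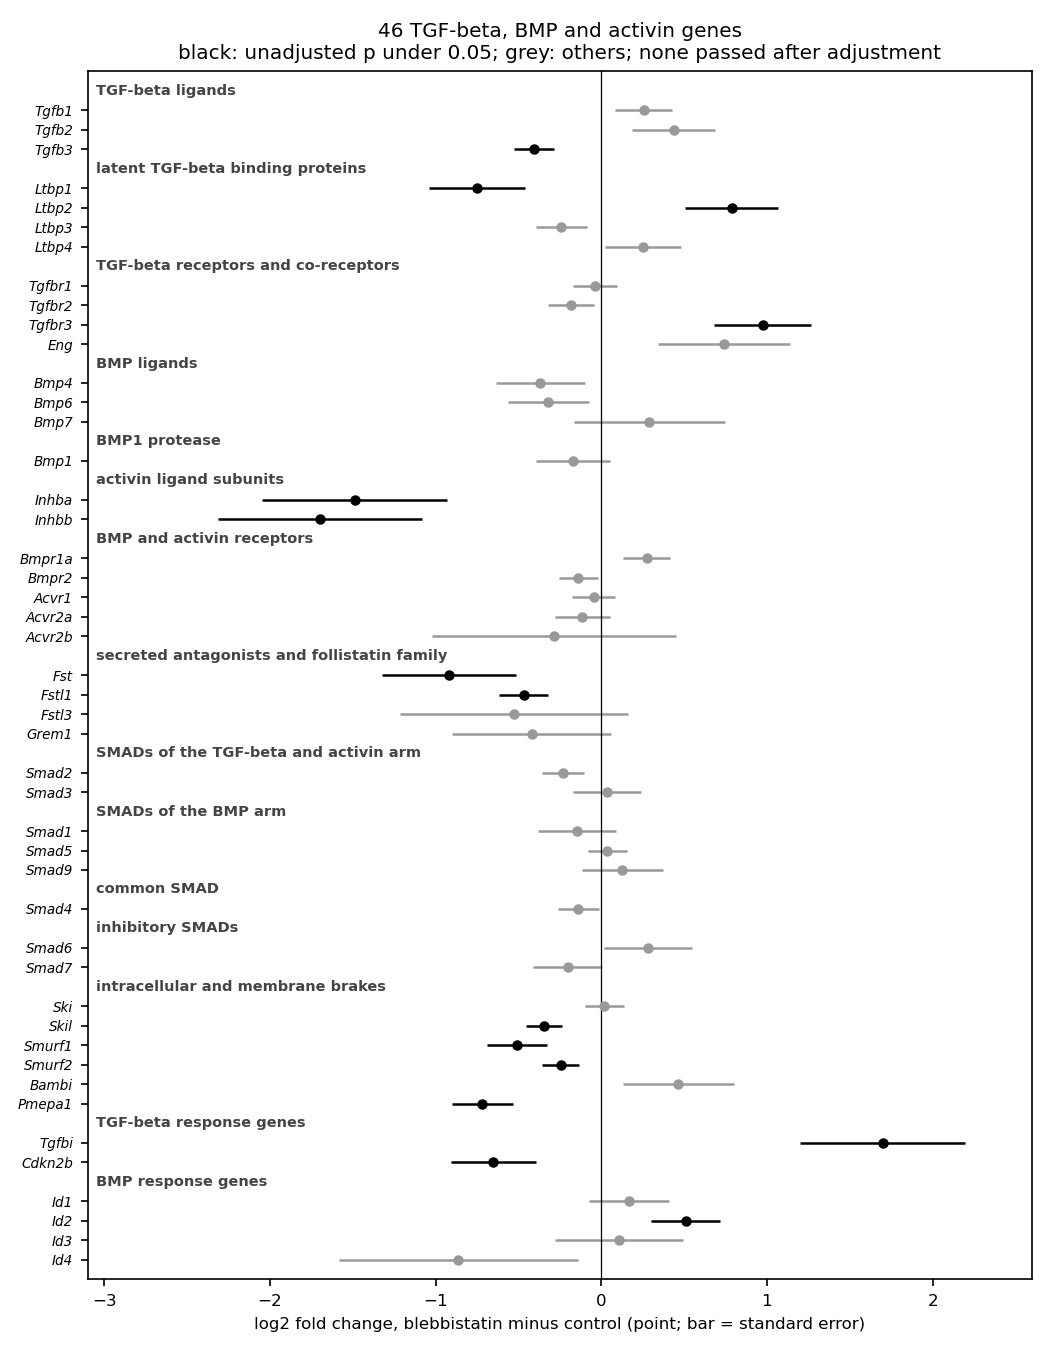
Log2 fold change of each of the 46 genes (x axis, treated minus control; points, edgeR estimates; bars, standard errors), grouped by role. The 15 genes in black had an unadjusted p under 0.05; activin subunits lie farthest to the left and Tgfbi farthest to the right.

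Levels were compared between genes on CPM per kilobase of exon sequence. In controls the most abundant was Fstl1, a secreted follistatin-like glycoprotein, at 281 ± 45.4 CPM per kb (SD, n = 8). Id3 followed at 81.2 ± 49.5 and Bmpr1a, a type I BMP receptor, at 62.3 ± 13.7, which lie within each other's spread. Pmepa1 at 36.2 ± 7.64, Smurf2 at 33.6 ± 5.41, Bmpr2 at 32.2 ± 5.18 and Ski at 31.0 ± 5.49 CPM per kb formed a group whose neighbours did not differ beyond their spread. Among the ligand genes of the 46, Tgfb3 was highest at 26.1 ± 2.51 CPM per kb, next to Bmp4 at 22.2 ± 8.69 and Inhba at 14.7 ± 10.6. In all, 41 of the 46 exceeded 1 CPM per kb in controls. The 5 below it were Fst, Fstl3, Id4, Bmp7 and Acvr2b, at 0.780 to 0.226 CPM per kb, and folds of these genes rest on low counts. Inhbb, at 1.76 CPM per kb in controls, averaged 0.54 in treated explants, so its fold rests on low treated counts.

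Of the 3 TGF-beta ligand genes, Tgfb3 was the one with an unadjusted p under 0.05. It lies on chromosome 12 (86056745 to 86079041, minus strand; build GRCm38, as for every gene here). Tgfb3 stood at 48.99 CPM in the lowest, 66.2 in the median and 88.2 in the highest treated library, and at 78.5, 87.2 and 104.1 CPM in controls. Of the 8 treated libraries, 7 lay below every control. The means were 66.6 ± 13.2 and 88.3 ± 8.49 CPM (SD, n = 8 each). This gave a log2 fold change of -0.41 (SE 0.12, edgeR adjusted p = 0.139). Tgfb1 and Tgfb2 had higher means with the drug, with log2 fold changes of 0.26 (SE 0.17) and 0.44 (SE 0.25), and edgeR adjusted p of 0.593 and 0.516. Tgfb1 averaged 53.1 ± 15.2 CPM against 44.5 ± 8.94, and Tgfb2 28.2 ± 10.6 CPM against 20.8 ± 7.18, and treated and control libraries overlapped in both. On the scale per kb, Tgfb3 made up 67.7% ± 3.18 of the summed ligand level in controls, ranging from 63.3% to 72.7%, and 56.0% ± 8.69 in treated explants, ranging from 40.0% to 67.5%. The share held by Tgfb1 averaged 23.0% in controls and 30.0% with the drug, and that held by Tgfb2 averaged 9.22% and 13.9%. These shares are descriptions and were not tested.

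**Figure D2:**
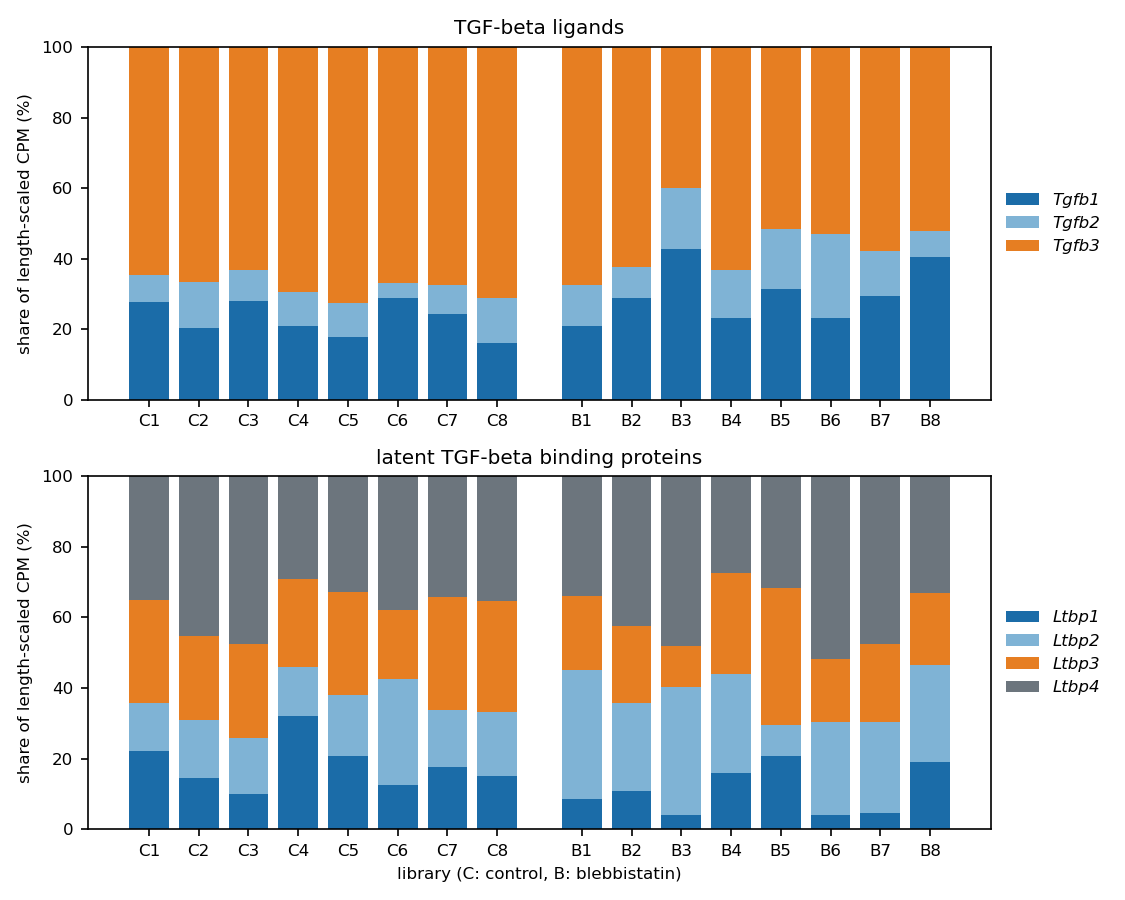
Share of the summed CPM per kb (y axis, percent) held by each TGF-beta ligand gene (top) and each latent TGF-beta binding protein gene (bottom) in each library (x axis; C, control; B, blebbistatin). Tgfb3 held 63.3% to 72.7% of the ligand sum in controls and 40.0% to 67.5% in treated libraries.

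Latent TGF-beta binding proteins are matrix proteins, most of which tether the latent complex, and their 4 genes were split. Ltbp1 (chromosome 17, 75005568 to 75392512) stood at 20.7, 49.1 and 100.2 CPM in the lowest, median and highest treated library and at 44.5, 80.9 and 135.4 CPM in controls. Of the treated libraries, 3 lay below every control. Its means of 48.2 ± 26.1 and 81.2 ± 28.7 CPM (SD, n = 8) gave a log2 fold change of -0.75 (SE 0.29, edgeR adjusted p = 0.280). Ltbp2, whose product binds fibrillin but is known not to bind latent TGF-beta, lay the other way, at 19.5, 102.8 and 162.3 CPM with the drug and 43.9, 59.9 and 92.7 CPM without it. In Ltbp2, 5 treated libraries exceeded every control, and 1, blebbistatin 5, lay below every control. The log2 fold change of Ltbp2 was 0.79 (SE 0.28, edgeR adjusted p = 0.229). Without blebbistatin 5 it was 0.95 with an adjusted p of 0.0178 (over all the alternatives, 0.0178 to 0.657). That fit called 180 genes over the whole table, against 95 with every library. Ltbp2 (chromosome 12, 84783212 to 84876532, minus strand) overlaps exons of D030025P21Rik on the other strand over 764 of its 8184 exon bases. Since the strand setting of the counting is not given, reads from those bases cannot be told apart. Ltbp3 and Ltbp4 had log2 fold changes of -0.24 (SE 0.15) and 0.25 (SE 0.23), with edgeR adjusted p of 0.573 and 0.711. Per kb, Ltbp1 held 18.0% ± 6.91 of the summed level of the 4 genes in controls and 10.9% ± 6.85 with the drug, and Ltbp2 17.7% ± 5.19 and 26.8% ± 8.57.

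Among the genes of TGF-beta receptors and co-receptors, Tgfbr3 was the one with an unadjusted p under 0.05. Tgfbr1 and Tgfbr2, the type I and type II kinases, had log2 fold changes of -0.04 (SE 0.13) and -0.18 (SE 0.14), with edgeR adjusted p of 0.931 and 0.646. Tgfbr1 averaged 64.7 ± 13.4 CPM with the drug and 66.5 ± 9.41 without it (SD, n = 8). Tgfbr3 encodes betaglycan, a co-receptor that presents TGF-beta to these kinases and also binds inhibin (chromosome 5, 107106570 to 107289629, minus strand). It stood at 14.1, 24.4 and 32.3 CPM in the lowest, median and highest treated library and at 3.40, 11.3 and 23.9 CPM in controls. Of the 8 treated libraries, 5 exceeded every control, and the highest control was control 6. The means of Tgfbr3 were 24.2 ± 6.21 and 12.3 ± 6.37 CPM, and the log2 fold change was 0.97 (SE 0.29, edgeR adjusted p = 0.139). Without control 6 it was 1.18 with an adjusted p of 0.0433, and by DESeq2 the adjusted p was 0.0353, within a range of 0.0353 to 0.419 over the alternatives. Calls over all genes rose as well, from 95 to 206 without control 6 and to 422 by DESeq2. Eng encodes endoglin, the other co-receptor, and had a log2 fold change of 0.74 (SE 0.40, edgeR adjusted p = 0.476). On leaving out 1 library the log2 fold change of Eng ran from 0.32 to 1.01. Its treated values ran from 11.2 to 103.9 CPM, the highest in blebbistatin 6, against 12.6 to 50.7 CPM in controls, and it overlaps Fpgs on the other strand.

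The lowest fold changes of the 46 were those of the activin subunit genes Inhba and Inhbb, whose products pair to form activins or join the inhibin alpha subunit. Inhba (chromosome 13, 16011851 to 16031621) stood at 6.27, 18.4 and 99.8 CPM in the lowest, median and highest treated library and at 37.9, 64.5 and 196.9 CPM in controls. Of the treated libraries, 6 lay below every control, and blebbistatin 4 and 5, at 83.6 and 99.8 CPM, lay among the controls. The means of Inhba were 33.4 ± 36.6 and 93.7 ± 67.4 CPM (SD, n = 8), a log2 fold change of -1.49 (SE 0.56, edgeR adjusted p = 0.258). Inhbb (chromosome 1, 119415465 to 119422248, minus strand) was the less abundant subunit, at 0.0855, 1.25 and 6.45 CPM with the drug and 3.39, 6.62 and 12.4 CPM without it. Again 6 treated libraries lay below every control, with blebbistatin 4 and 5, at 5.64 and 6.45 CPM, above the lowest control. The log2 fold change of Inhbb was -1.70 (SE 0.61, edgeR adjusted p = 0.239). By limma voom the log2 fold change was -2.75 with an adjusted p of 0.0340. With the summed log2 CPM of the macrophage markers as a covariate it was -2.22 with an adjusted p of 0.0326 in edgeR. The adjusted p ranged from 0.0326 to 0.374 over the alternatives. Over all genes, limma voom called 123 and the fit with that covariate 261, against 95 in the edgeR fit by group. In both genes the lowest control was control 6, at 37.9 and 3.39 CPM.

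**Figure D3:**
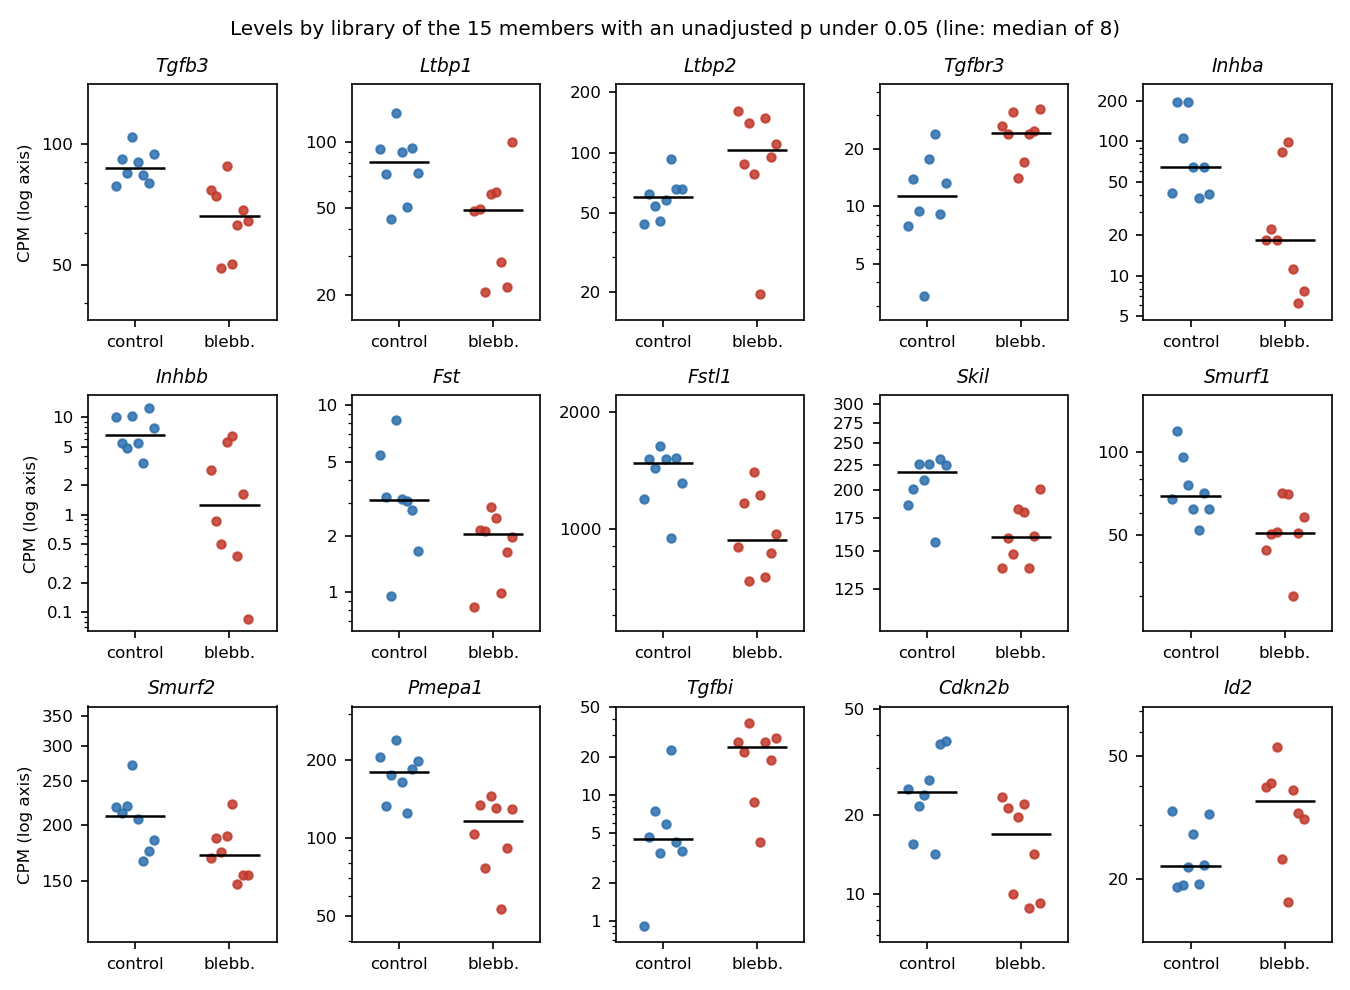
CPM by library (y axis, log scale; points, libraries; line, median of 8) of the 15 genes with an unadjusted p under 0.05, controls in blue and treated in red. In Inhba and Inhbb 6 treated libraries lie below every control, and in Tgfbr3 5 lie above every control.

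The promoters of the activin subunit genes are printed because these genes had the lowest fold changes of the 46. Promoters are RefSeq windows (GRCm38.p6) from 250 bases before to 50 bases after the start site, 5′ to 3′ on the gene's strand, and 40 such windows were matched to 34 of the 46 genes. Each of 6 motifs was searched on both strands, and capitals mark a match: the SMAD box CAGAC, the palindromic SMAD element GTCTAGAC, the GC element of BMP targets GGCGCC, the AP-1 site TGAGTCA, the cyclic AMP element TGACGTCA and the TEAD site GGAATG. No motif contains another.
Inhba (chr13:16011601-16011900, plus strand): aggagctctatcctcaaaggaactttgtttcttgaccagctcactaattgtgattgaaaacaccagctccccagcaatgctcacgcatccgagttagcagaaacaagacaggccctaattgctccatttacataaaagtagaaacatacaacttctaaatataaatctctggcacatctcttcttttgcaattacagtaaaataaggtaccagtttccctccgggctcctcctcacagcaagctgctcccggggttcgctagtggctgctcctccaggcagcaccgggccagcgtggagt
Inhbb (chr1:119422199-119422498, minus strand): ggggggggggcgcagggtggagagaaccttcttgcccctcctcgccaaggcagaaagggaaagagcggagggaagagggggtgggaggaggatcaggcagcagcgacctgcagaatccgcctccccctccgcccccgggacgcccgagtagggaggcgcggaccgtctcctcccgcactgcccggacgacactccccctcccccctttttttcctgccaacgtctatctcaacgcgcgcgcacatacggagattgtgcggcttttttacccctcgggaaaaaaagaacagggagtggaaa
Neither window holds any of the 6 motifs. Of 32851 mouse promoter windows of this length, 49.6% hold CAGAC, 0.213% GTCTAGAC, 11.9% GGCGCC, 5.2% TGAGTCA, 1.79% TGACGTCA and 14.7% GGAATG. Over the 40 windows matched here, CAGAC was in 19 (47.5%), GGCGCC in 14 (35.0%), TGACGTCA and GGAATG in 2 each (5.0%), and TGAGTCA and GTCTAGAC in 1 each (2.5%). A match is a description of letters and not a bound site.

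The 4 secreted antagonist and follistatin family genes among the members had lower means with the drug, and none passed adjustment in the edgeR fit by group. Fst encodes follistatin, which binds activins and keeps them from their receptors (chromosome 13, 114452290 to 114458951, minus strand). It stood at 0.834, 2.05 and 2.87 CPM in the lowest, median and highest treated library and at 0.951, 3.12 and 8.36 CPM in controls. Every treated library lay below the control median, and 1 lay below every control. Its log2 fold change was -0.92 (SE 0.40, edgeR adjusted p = 0.357). Fstl1, known as a product of the epicardium (chromosome 16, 37776873 to 37836514), stood at 732.7, 932 and 1398 CPM with the drug and 947.6, 1474 and 1632 CPM without it. In Fstl1, 4 treated libraries lay below every control, of which the lowest was control 6. The means were 999 ± 238 and 1383 ± 223 CPM (SD, n = 8), a log2 fold change of -0.47 (SE 0.15, edgeR adjusted p = 0.157). Fstl3 and Grem1, an antagonist of BMPs, had log2 fold changes of -0.53 (SE 0.69) and -0.42 (SE 0.48), with edgeR adjusted p of 0.804 and 0.776. Grem1 lay at 3.26 to 29.6 CPM in 7 treated libraries and at 54.2 CPM in blebbistatin 8, against 10.6 to 35.6 CPM in controls.

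Among the members, the BMP ligands and the BMP and activin receptors held no gene with an unadjusted p under 0.05. Of the 3 BMP ligand genes among the members Bmp4 was the most abundant, with 74.2% ± 5.60 of the summed CPM per kb of Bmp4, Bmp6 and Bmp7 in controls and 71.4% ± 12.2 with the drug. It averaged 38.6 ± 18.7 CPM with the drug and 49.9 ± 19.5 without it (SD, n = 8), a log2 fold change of -0.37 (SE 0.27, edgeR adjusted p = 0.632), and 5 treated libraries lay below every control. Bmp6, which overlaps Txndc5 on the other strand, had a log2 fold change of -0.32 (SE 0.24), and Bmp7, near 1 CPM in both groups, one of 0.29 (SE 0.45), with edgeR adjusted p of 0.650 and 0.837. Bmp1 is named with the BMPs but encodes a protease that cuts procollagen and BMP antagonists, and its log2 fold change was -0.17 (SE 0.22, edgeR adjusted p = 0.802). Bmpr1a had a log2 fold change of 0.27 (SE 0.14, edgeR adjusted p = 0.458), from means of 478.4 ± 87.3 and 395.9 ± 87.1 CPM. The type II receptor Bmpr2 stood at 525.7 ± 73.8 and 578.7 ± 93.2 CPM, with a log2 fold change of -0.14 (SE 0.12, edgeR adjusted p = 0.685). Of the receptors that bind activins or both ligand classes, Acvr1, Acvr2a and Acvr2b had log2 fold changes of -0.04 (SE 0.13), -0.11 (SE 0.17) and -0.28 (SE 0.73), with edgeR adjusted p from 0.823 to 0.915. Acvr2a overlaps Orc4 on the other strand, and Acvr2b averaged under 1 CPM in both groups. Outside the members, and named after their values were seen, the BMP-class ligand Gdf6 averaged 75.3 ± 36.4 CPM with the drug and 126.0 ± 36.8 without it (SD, n = 8; log2 fold change -0.74, edgeR adjusted p = 0.256). The type I receptor Bmpr1b averaged 0.831 ± 0.626 and 2.27 ± 1.19 CPM (log2 fold change -1.45, edgeR adjusted p = 0.324). In both, all treated libraries lay below the control median, and the unadjusted p was under 0.05.

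None of the SMAD genes had an unadjusted p under 0.05. Smad2 ranged from 52.6 to 61.4 CPM in treated libraries and from 47.9 to 89.0 CPM in controls, so every treated value lay inside the control range and below the control median of 63.2. Its treated spread of 2.73 CPM (SD) compared with 14.96 CPM in controls, and its log2 fold change was -0.23 (SE 0.13, edgeR adjusted p = 0.477). Smad3, the other SMAD of the TGF-beta and activin arm, had a log2 fold change of 0.03 (SE 0.20). The BMP-arm genes Smad1, Smad5 and Smad9 had log2 fold changes of -0.14 (SE 0.23), 0.04 (SE 0.12) and 0.13 (SE 0.24), and the shared partner Smad4 one of -0.14 (SE 0.12). The inhibitory Smad6 and Smad7 had log2 fold changes of 0.28 (SE 0.26) and -0.20 (SE 0.21). The edgeR adjusted p of these 7 genes, Smad2 aside, ran from 0.706 to 0.961.

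Of 6 further genes whose products restrain the pathway inside the cell or at its membrane, 4 had an unadjusted p under 0.05, all with lower means in treated explants (12.2% of all genes had such a p, and 5.98% with a lower mean). Pmepa1, a membrane protein that is induced by TGF-beta and holds back receptor-activated SMADs, had the smallest p of the 46 (chromosome 2, 173224458 to 173276533, minus strand). It stood at 53.4, 116.5 and 144.8 CPM in the lowest, median and highest treated library and at 124.9, 179.9 and 238.2 CPM in controls. In Pmepa1 4 treated libraries lay below every control, of which the lowest was control 6. Its means were 108.2 ± 32.2 and 178.0 ± 37.6 CPM (SD, n = 8), a log2 fold change of -0.72 (SE 0.18, edgeR adjusted p = 0.0729). The call depended on the analysis: the adjusted p was 0.00995 by DESeq2 and 0.0431 in edgeR without control 6. It was 0.0278 in edgeR with the summed log2 CPM of the macrophage markers as a covariate, and over all the alternatives it ran up to 0.228. Calls over all genes also rose in these fits, from 95 to 422 by DESeq2, 206 without control 6 and 261 with the covariate. Skil encodes SnoN, a corepressor of SMADs (chromosome 3, 31095058 to 31122577), and stood at 138.3, 160.1 and 201 CPM with the drug and 156.2, 217.8 and 231.6 CPM without it. All treated values of Skil lay below the control median, and 3 below every control. Its log2 fold change was -0.35 (SE 0.11, edgeR adjusted p = 0.154).

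Smurf1 and Smurf2 encode ubiquitin ligases that mark SMADs and receptors for degradation. Smurf1 (chromosome 5, 144876495 to 144965847, minus strand) stood at 30.1, 51.1 and 71.1 CPM in the lowest, median and highest treated library and at 52.1, 69.5 and 119.4 CPM in controls. In Smurf1, 5 treated libraries lay below every control, and its log2 fold change was -0.51 (SE 0.18, edgeR adjusted p = 0.230). Smurf2 (chromosome 11, 106820066 to 106920715, minus strand) stood at 147.5, 171.2 and 222.2 CPM with the drug and 166.2, 209.1 and 271.9 CPM without it. In Smurf2, 3 treated libraries lay below every control, and its log2 fold change was -0.25 (SE 0.11, edgeR adjusted p = 0.387). The other two genes of this role had positive log2 fold changes: Ski, the relative of Skil, 0.02 (SE 0.12), and Bambi, a decoy receptor without a kinase, 0.47 (SE 0.33), with edgeR adjusted p of 0.965 and 0.626. In Pmepa1, Skil, Smurf1 and Smurf2 alike, the lowest control was control 6.

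The response genes of TGF-beta lay in opposite directions. Tgfbi, a secreted matrix protein named for its induction by TGF-beta (chromosome 13, 56609523 to 56639562), stood at 4.25, 24.2 and 37.5 CPM in the lowest, median and highest treated library and at 0.908, 4.46 and 22.8 CPM in controls. In Tgfbi, 4 treated libraries exceeded every control, and 7 exceeded the control median. Its means were 21.6 ± 10.8 and 6.63 ± 6.81 CPM (SD, n = 8), a log2 fold change of 1.70 (SE 0.50, edgeR adjusted p = 0.128). The highest Tgfbi value in each group was in the library with the most macrophage marker counts, control 6 with a marker sum of 4553 CPM and blebbistatin 3 with 3609 CPM. The lowest marker sum, 253.4 CPM in blebbistatin 1, went with 26.4 CPM of Tgfbi. With the summed log2 CPM of the macrophage markers as a covariate, the log2 fold change of Tgfbi was 1.96 and its adjusted p 0.0254 in edgeR. Without control 6 these were 2.32 and 0.0102. By DESeq2 the adjusted p was 0.0120, and over all the alternatives it ran from 0.0102 to 0.5004. Over all genes, 261 were called with the covariate, 206 without control 6 and 422 by DESeq2, against 95 in the edgeR fit by group. Cdkn2b, an inhibitor of cyclin-dependent kinases that TGF-beta is known to induce (chromosome 4, 89306299 to 89311039, minus strand), stood at 8.89, 16.9 and 23.3 CPM with the drug and 14.2, 24.3 and 37.9 CPM without it. Of the treated libraries, 3 lay below every control, and its log2 fold change was -0.65 (SE 0.26, edgeR adjusted p = 0.286).

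**Figure D4:**
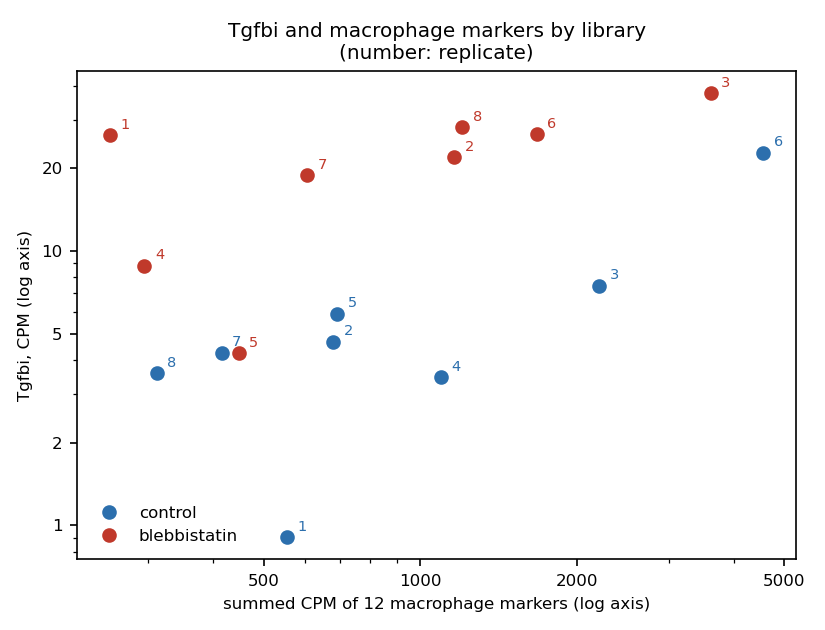
Tgfbi CPM (y axis, log scale) against the summed CPM of 12 macrophage markers (x axis, log scale) in each library; numbers are replicates, controls in blue and treated in red. Control 6, the highest control at 22.8 CPM, has the largest marker sum, while blebbistatin 1 has 26.4 CPM at the smallest sum.

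Id genes encode partners that block other transcription factors from DNA and are the usual readout of BMP signalling. Id2 (chromosome 12, 25093799 to 25097140, minus strand) stood at 16.8, 35.8 and 53.8 CPM in the lowest, median and highest treated library and at 18.9, 22.0 and 33.1 CPM in controls. In Id2, 4 treated libraries exceeded every control and 1 lay below every control. Its log2 fold change was 0.51 (SE 0.21, edgeR adjusted p = 0.307). Id1 and Id3 had log2 fold changes of 0.17 (SE 0.24) and 0.11 (SE 0.39), with edgeR adjusted p of 0.822 and 0.936. Id3 varied widely within both groups, from 67.3 to 455.6 CPM with the drug and from 59.0 to 315.2 CPM without it, and without blebbistatin 1, its highest library, the log2 fold change was -0.36. Id4 averaged 0.520 and 0.946 CPM, with 1 treated library at 0 (edgeR adjusted p = 0.684). Per kb, Id3 held 76.8% ± 6.72 of the summed Id level in controls and 73.1% ± 8.52 with the drug, and Id2 held 11.03% ± 3.12 and 14.5% ± 4.74.

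Promoters are shown for Tgfbi and Cdkn2b, the response genes of TGF-beta that lay in opposite directions, for Id2, the Id gene with the smallest p, and for Ltbp2, the binding protein gene with the highest fold change. Windows and capitals are as for Inhba and Inhbb.
Tgfbi (chr13:56609336-56609635, plus strand): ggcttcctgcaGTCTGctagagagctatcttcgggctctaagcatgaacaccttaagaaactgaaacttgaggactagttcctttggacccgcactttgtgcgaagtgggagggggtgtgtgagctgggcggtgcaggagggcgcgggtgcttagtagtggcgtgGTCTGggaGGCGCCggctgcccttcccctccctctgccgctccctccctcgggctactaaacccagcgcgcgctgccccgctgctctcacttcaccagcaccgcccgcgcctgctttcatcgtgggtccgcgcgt
Cdkn2b (chr4:89310983-89311282, minus strand): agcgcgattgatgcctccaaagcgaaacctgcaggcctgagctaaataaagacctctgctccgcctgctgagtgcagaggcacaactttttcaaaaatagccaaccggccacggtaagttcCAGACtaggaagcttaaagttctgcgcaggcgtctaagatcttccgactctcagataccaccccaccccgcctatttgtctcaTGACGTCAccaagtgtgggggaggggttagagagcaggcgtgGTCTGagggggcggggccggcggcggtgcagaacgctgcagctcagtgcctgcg
Id2 (chr12:25096043-25096342, minus strand): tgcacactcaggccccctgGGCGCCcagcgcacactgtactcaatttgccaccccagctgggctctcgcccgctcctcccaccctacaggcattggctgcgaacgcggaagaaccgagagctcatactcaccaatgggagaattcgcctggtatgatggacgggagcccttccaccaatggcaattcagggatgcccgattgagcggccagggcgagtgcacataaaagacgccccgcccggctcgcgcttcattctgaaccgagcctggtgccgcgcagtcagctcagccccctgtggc
Ltbp2 (chr12:84876442-84876741, minus strand): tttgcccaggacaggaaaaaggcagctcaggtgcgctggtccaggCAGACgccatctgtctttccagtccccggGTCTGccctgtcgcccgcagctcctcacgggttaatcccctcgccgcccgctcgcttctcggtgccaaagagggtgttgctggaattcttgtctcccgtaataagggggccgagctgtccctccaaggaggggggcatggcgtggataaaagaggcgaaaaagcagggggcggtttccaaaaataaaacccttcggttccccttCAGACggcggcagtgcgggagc
The Tgfbi window holds 2 matches to CAGAC and 1 to GGCGCC. The Cdkn2b window holds 2 matches to CAGAC and 1 to TGACGTCA. The Id2 window holds 1 match to GGCGCC, and the Ltbp2 window 3 matches to CAGAC. Both response genes therefore carry the SMAD box, as do 49.6% of all promoter windows.

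By arm, 17 members belong to TGF-beta and activin (ligands, binding proteins, receptors of TGF-beta, activin subunits, SMADs and response genes). Of these, 3 had a higher and 5 a lower mean at an unadjusted p under 0.05, with a median log2 fold change of -0.04. Of the 10 members counted for BMP (ligands, SMADs and Id genes), 1 was higher and 0 lower at that p, with a median of 0.07. Over all genes 6.21% were higher and 5.98% lower at that p. The 5 BMP and activin receptor genes were counted in neither set, since their list holds receptors of both arms. Bmp1, Smad4, Smad6 and Smad7 were in neither set. The same holds for the 4 secreted antagonist and follistatin family genes, of which 2 were lower at that p. It also holds for the 6 further genes that restrain the pathway, of which 4 were lower, Pmepa1 among them. The sets are therefore not built alike and cover only part of each arm. The difference between the arms was not tested. Among Tgfbi, Cdkn2b, Pmepa1, Skil and Smad7, 5 members that TGF-beta is known to induce and not a complete list, the median log2 fold change was -0.35. This set was drawn across roles and was not set in advance. The role of TGF-beta response genes, which holds Tgfbi and Cdkn2b alone, had a median of 0.52.

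Libraries contributed unequally to these values. Control 6 was the lowest control in 23 of the 46 genes (50%), whereas it was the lowest control for 16.1% of all genes. Control 4 was the highest control in 14 (30.4%, against 13.2% of all genes). Among treated explants, blebbistatin 3 was lowest in 11 (23.9%, against 10.4% of all genes). Between control libraries the median SD of log2 CPM was 0.41 over the 46 genes and 0.47 over all genes tested.

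Of a further list of 124 genes of the pathway, 90 were in the table, and 6 of them passed the adjusted threshold in edgeR, all lower with the drug (0.351% of all genes were called lower and 0.255% higher). Over the 90 genes the median log2 fold change was -0.11, and 3 were higher and 28 lower at an unadjusted p under 0.05 (6.21% and 5.98% of all genes). This list was chosen with earlier results of these data known, so its counts beside those shares are descriptions and not a test. Lrrc32 fell (chromosome 7, 98489283 to 98502181); it encodes GARP, a cell-surface protein that holds latent TGF-beta. It stood at 2.35, 12.7 and 25.2 CPM in the lowest, median and highest treated library and at 31.2, 41.98 and 69.7 CPM in controls. The groups did not overlap in Lrrc32, which held in the lower direction for 0.159% of all genes. Its log2 fold change was -1.75 (SE 0.34, edgeR adjusted p = 0.0198). With the summed log2 CPM of the macrophage markers as a covariate the edgeR adjusted p was 0.0101. With Y-linked gene counts as a covariate the adjusted p of Lrrc32 was 0.0775. Lrrc32 was the 1 gene called of 18 for latency, activation and matrix, whose median log2 fold change was 0.04.

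The other 5 called genes were among 21 further response genes of TGF-beta, whose median log2 fold change was -0.41. Of the 21 values, 16 were negative and 5 positive. The positive ones were Comp (1.57), Snai1 (0.36), Junb (0.35), Col1a2 (0.26) and Itga11 (0.13), with edgeR adjusted p from 0.4195 to 0.911. Whether TGF-beta signalling itself changed was not tested. Ccn2, a matricellular protein, fell by 1.77 on the log2 scale (SE 0.25, edgeR adjusted p = 0.00283). Acta2 and Tagln, smooth muscle cytoskeletal genes that are also in the smooth muscle marker list, fell by 1.22 (SE 0.18) and 1.72 (SE 0.30), with edgeR adjusted p of 0.00411 and 0.0112. Part of Tagln overlaps exons of Pcsk7 on the other strand, so reads from the bases they share cannot be told apart. Lox, which crosslinks collagen, fell by 1.37 (SE 0.27), and Bhlhe40, a transcriptional repressor, fell by 0.60 (SE 0.12), both at an edgeR adjusted p of 0.0198. Without control 7 the adjusted p of Lox and of Bhlhe40 was 0.0503. With Y-linked gene counts as a covariate the adjusted p was 0.1003 for Lox and 0.112 for Bhlhe40. None was called higher: the smallest p in that direction was that of Ctdsp1, a phosphatase that acts on SMADs, with a log2 fold change of 0.42 (SE 0.12, edgeR adjusted p = 0.107), which DESeq2 put at an adjusted p of 0.0362. Next were Atoh8, a BMP response gene, at 0.75 (SE 0.31) and Tgfbrap1, a receptor-associated protein, at 0.34 (SE 0.14), with edgeR adjusted p of 0.322 and 0.324. None of the 5 further family ligands, 6 receptors, 11 secreted antagonists, 23 intracellular regulators and 6 BMP response genes was called by edgeR.

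**Figure D5:**
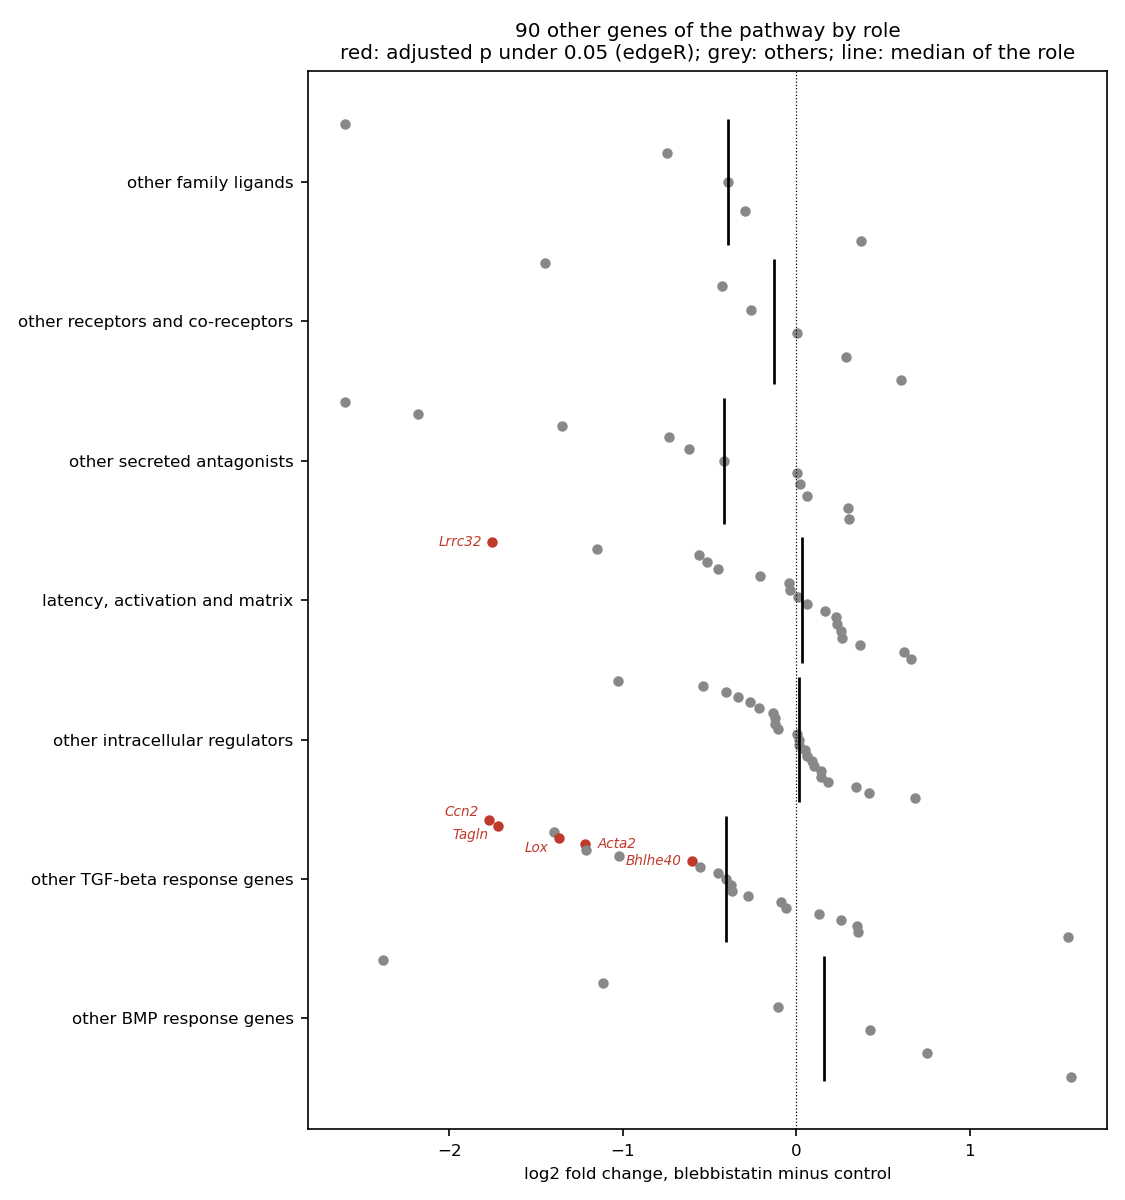
Log2 fold change (x axis, treated minus control) of 90 further genes of the pathway by role (points, genes in order of fold change within a role; line, median of the role). The 6 genes in red passed an edgeR adjusted p under 0.05, and all lie to the left, 5 of them among TGF-beta response genes.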

How the data were processed

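The deposited values are raw counts for each gene in each of the 16 explants, made by the authors. Per the labels' protocols, RNA was amplified (Ovation RNA-Seq) before library preparation (Nextera XT). HTSeq 0.6.1p1, TopHat2 2.1.0, edgeR, Bowtie2 2.2.6.0, SAMtools 1.3 and build mm10 (GRCm38) are named per the submitters' processing notes. Neither strand setting nor annotation release is stated in those notes. Every deposited gene exceeds 1 CPM in at least 4 libraries, as tested on the table, so genes silent in most libraries were not analysed here.

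Counts were scaled by TMM, filtered with filterByExpr (130 genes taken out) and tested over the whole table with edgeR 4.0.16 (R 4.3.3; quasi-likelihood test, robust, group only). P-values were Benjamini-Hochberg adjusted over 15675 genes, at a threshold of 0.05. The SE of a log2 fold change was derived from the test statistic. CPM values are TMM-scaled, except in marker sums, which use library totals; a prior count of 2 entered log2 CPM. Exon lengths and gene positions are from GENCODE M21, where 15665 of the 15805 identifiers matched, and promoters from RefSeq.

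The members and gene lists were chosen with earlier results of these data known. Values by library are given for members at an unadjusted p under 0.05. Of the further genes, the rule named up to 6 called in each direction or, where none was called, the 3 with the smallest p. Among the genes so named, lowest, median and highest values are given for Lrrc32 alone. Marker sums were compared with 2-sided exact permutation tests over all 12870 splits. Alternatives were DESeq2 1.42.0, limma voom 3.58.1, other scaling and filters, covariates, a block and leaving out libraries. The scripts were tested on simulated data. Replicate libraries were checked for repeats, and the most alike, control 7 and 8, had a chi-square per degree of freedom of 48.7, above sampling noise.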

Additional observations from a re-analysis of the deposited data

Results flagged for a closer look

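In 5 of 92 groups of 8 libraries (46 genes in 2 conditions), 1 library lay far from the other 7 on the log2 CPM scale, by Dixon's gap ratio against a critical value of 0.526. Chance alone flags about 1 group in 20. Ltbp2 was at 19.5 CPM in blebbistatin 5, against 77.8 to 162.3 CPM in the other treated libraries (ratio 0.653). Ltbp3 was at 50.1 CPM in blebbistatin 3, against 84.2 to 109.4 CPM (ratio 0.665). Smad1 was at 7.74 CPM in blebbistatin 1, against 22.0 to 43.0 CPM (ratio 0.609). In controls, Bmp4 was at 95.6 CPM in control 1, against 33.4 to 52.7 CPM in the others (ratio 0.566). Bmp1 was at 35.8 CPM in control 7, against 51.8 to 67.4 CPM (ratio 0.582).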

How the results depend on the processing

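The count of the 46 genes past the adjusted threshold, 0 in the edgeR fit, was 3 by DESeq2, 1 by limma voom, 3 with the replicate block, 3 with the macrophage covariate and 0 to 3 on leaving out 1 library: 3 without control 6 (Tgfbr3, Tgfbi and Pmepa1) and 1 without blebbistatin 5 (Ltbp2). At an unadjusted p under 0.05, a count added after the data were seen, the 15 genes became 13 to 17 without 1 library. The 6 further pathway genes called became 15 by DESeq2, 12 with the macrophage covariate, 3 with Y-linked genes as a covariate, and 4 (without control 7) to 10 (without control 6) on leaving out 1 library. Over all genes, 95 calls became 422 by DESeq2, 177 with the block, 261 with the macrophage covariate, 21 with the Y-linked covariate and 44 to 206 without 1 library. Log2 fold changes turned sign by more than their SE for Smad6 with the Y-linked covariate (-0.039) and for Id3 without blebbistatin 1 (-0.36; -0.36 to 0.37 on leaving out 1 library) and without blebbistatin 1 and 8, the 2 libraries with the fewest genes detected (-0.50, chosen after seeing the data). Values of Ski, Smad1, Smad3, Smad5, Tgfbr1, Id3 and Acvr2b also crossed 0 in some settings, by less than their SE. The cause of these changes was not tested. Replicate numbers did not pair the samples: correlations of same-numbered libraries were 0.00394 to 0.279, with 4 of 8 over 0.1 and 2 of 8 treated libraries closest to their own number. With the block, Fstl1 (adjusted p = 0.0495), Pmepa1 (0.0318) and Inhba (0.0425) passed the threshold in edgeR. DESeq2 gave no adjusted p for Bmp7, Acvr2b, Fstl3 and Id4. Genes near or under 1 CPM (Bmp7, Acvr2b, Fstl3, Id4) are limited by depth, as is Inhbb in treated libraries (median 1.25 CPM).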

Other observations

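Several further pathway genes, named after their values were seen, had a lower mean with the drug and missed the adjusted edgeR threshold. Fn1, which encodes the matrix protein fibronectin, averaged 4441 ± 698 CPM with the drug and 6532 ± 1143 without it (SD, n = 8; log2 fold change -0.56, edgeR adjusted p = 0.0526). Itgb1, an integrin subunit, averaged 666.5 ± 90.6 and 912.1 ± 137.0 CPM (log2 fold change -0.45, edgeR adjusted p = 0.0673), and Thbs1, thrombospondin, which can release TGF-beta from its latent complex, 1616 ± 457 and 2383 ± 458 CPM (log2 fold change -0.56, edgeR adjusted p = 0.143). Bmper, a secreted binder of BMPs, averaged 25.8 ± 17.4 and 65.7 ± 22.4 CPM (log2 fold change -1.35, edgeR adjusted p = 0.170). By DESeq2 the adjusted p of Fn1, Itgb1 and Thbs1 was 0.00190, 0.00815 and 0.0407, and that of Bmper 0.0917.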
